A study of Homo sapiens with 2 samples.

Results

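Cullin-RING ligases attach ubiquitin to proteins, and the genes that encode the CRL4 ligases, their substrate receptors and their regulators are described here by the PRMT6 and PARP1 peaks that lie at them. The genes form a named list of 49: 8 cullins, 5 genes of the RING subunits and of the DDB1 adaptor with its small partners, 19 substrate receptors, 10 subunits of the COP9 signalosome and 7 genes of the neddylation cycle. All 49 had a protein-coding record, among 19308 such records with a known strand. The rule that names them uses no measured value, but the genes were chosen with earlier results of these data known. CUL4B, DDB1 and RBX1 among them encode CRL4B, the ligase that the study proposes to work in a complex with PRMT6 and PARP1.

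In a CRL4 ligase the cullin CUL4A or CUL4B is a scaffold. One end holds the RING protein RBX1, which recruits the enzyme charged with ubiquitin, and the other end holds the adaptor DDB1, to which a substrate receptor (a DCAF protein) is bound. Attachment of the small modifier NEDD8 to the cullin switches the ligase on, the COP9 signalosome removes NEDD8 again, and CAND1 then helps to exchange the receptor. CRL4 ligases act in DNA repair, in the licensing of replication and at chromatin.

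The data comprised 2 libraries from untreated cells of MDA-MB-231, a human cell line of triple-negative breast cancer, grown in DMEM with fetal bovine serum. In 1 library an antibody against PRMT6, an arginine methyltransferase, was used, and in the other an antibody against PARP1, which adds ADP-ribose to proteins. Neither library had a replicate, a treated counterpart or a control library that was used here, so every comparison describes these libraries and none was tested. The PRMT6 list held 9080 peaks and the PARP1 list 11651, where a peak is a stretch with more sequenced fragments than its surroundings, and the read depth behind them is unknown. A peak's score is the −log10 of the p or q value of the peak caller, and since it depends on depth it is used only to rank peaks within a list, with rank 1 for the highest score. Coordinates are in GRCh38.

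More of the listed genes than of all coding genes had a peak at the promoter, here a window that reaches 3 kb in each direction from the gene record's 5′ end. A PRMT6 peak was found at 21 of the 49 genes (42.9%, 95% exact binomial interval 28.8% to 57.8%), beside 18.4% of all coding genes. A PARP1 peak was found at 25 (51.0%, 36.3% to 65.6%), beside 22.6% of all coding genes. Both kinds of peak were present at 19 genes (38.8%, 25.2% to 53.8%), beside 13.5%, and at 18 of these (36.7% of the list) the PRMT6 peak shared bases with a PARP1 peak, beside 13.0%. No promoter peak of either list was present at 22 genes (44.9%, 30.7% to 59.8%), beside 72.5%. The intervals cover counting error only and treat genes as independent.

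Genes with a PRMT6 promoter peak were mostly genes with a PARP1 promoter peak as well. The 19 shared genes made up 90.5% of the listed genes with PRMT6 and 76.0% of those with PARP1, whereas over all coding genes the 2598 shared genes made up 73.1% and 59.6%. Only DCAF8 and DCAF12 had a PRMT6 peak without a PARP1 peak. RNF7, DDB2, COPS5, COPS7A, COPS7B and NEDD8 had a PARP1 peak without a PRMT6 peak.

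**Figure D1:**
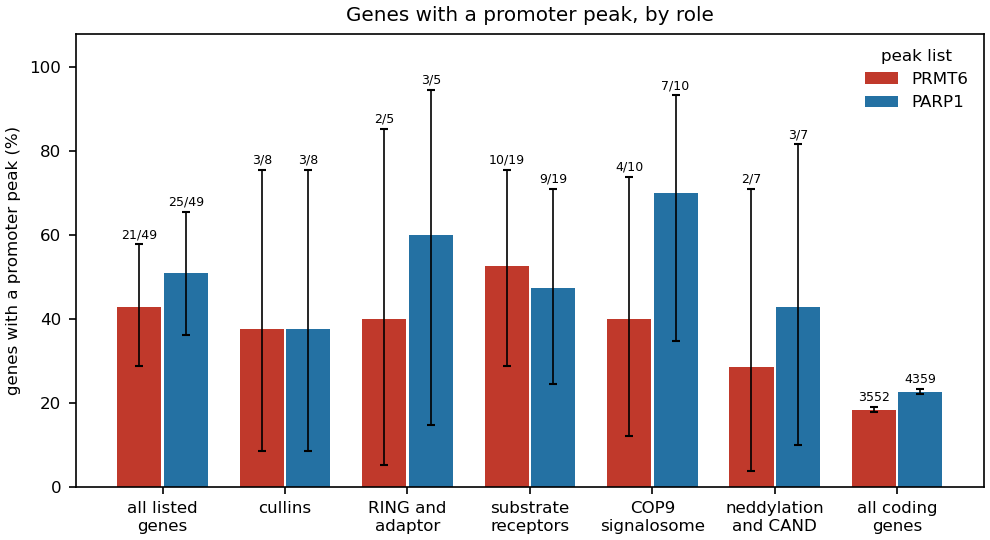
Share of genes with a promoter peak (vertical axis, %) in the PRMT6 list (red) and the PARP1 list (blue), for all 49 listed genes, for each role and for all 19308 coding genes. Bars are shares, error bars are 95% exact binomial intervals, and the numbers give genes with a peak over genes in the group. The COP9 signalosome had the highest PARP1 share, 7 of 10, and the intervals of the roles overlap each other.

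The following promoter stretches show the patterns that the counts summarise, and each is given from the RefSeq promoter table (GRCh38.p14), 5′ to 3′ on the strand of the gene and ending at the base before a listed start. Capitals mark matches on either strand to short motifs of common promoter factors: CCGGAAG (ETS factors), GCGCATGC (the core of the NRF1 motif), CCAAT (NFY), GGGCGG (the GC box of SP and KLF factors), AAGATGGC (YY1) and TGACGTCA (the CRE). The stretches of RBX1, DCAF15 and DCAF16 are shown as promoters under peaks of both lists and DDB2 as one under a PARP1 peak alone. DCAF6 is shown for an inner start site under a PARP1 peak, and CUL4B for an inner start site without a peak.
RBX1, chr22:40951128-40951377, plus strand: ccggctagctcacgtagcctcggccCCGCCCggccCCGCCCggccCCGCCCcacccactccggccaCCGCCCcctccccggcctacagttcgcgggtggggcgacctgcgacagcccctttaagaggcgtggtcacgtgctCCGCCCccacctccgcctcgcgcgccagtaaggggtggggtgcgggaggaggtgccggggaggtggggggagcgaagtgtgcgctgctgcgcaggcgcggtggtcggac
DCAF15, chr19:13952259-13952508, plus strand: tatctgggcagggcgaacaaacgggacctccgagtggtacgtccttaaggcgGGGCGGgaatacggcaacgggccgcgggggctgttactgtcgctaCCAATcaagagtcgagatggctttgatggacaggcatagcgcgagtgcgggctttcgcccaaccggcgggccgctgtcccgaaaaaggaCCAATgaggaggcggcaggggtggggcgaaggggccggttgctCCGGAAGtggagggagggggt
DCAF16, chr4:17810758-17810978, minus strand: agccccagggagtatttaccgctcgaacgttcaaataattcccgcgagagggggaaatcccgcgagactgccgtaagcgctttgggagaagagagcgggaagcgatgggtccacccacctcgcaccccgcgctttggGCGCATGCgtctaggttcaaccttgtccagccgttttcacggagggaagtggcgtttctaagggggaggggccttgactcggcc
DDB2, chr11:47214204-47214453, plus strand: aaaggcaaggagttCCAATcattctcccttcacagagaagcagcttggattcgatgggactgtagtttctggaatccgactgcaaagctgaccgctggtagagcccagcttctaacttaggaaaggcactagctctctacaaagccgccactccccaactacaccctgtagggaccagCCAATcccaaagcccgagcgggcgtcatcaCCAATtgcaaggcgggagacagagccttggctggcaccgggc
DCAF6, chr1:167936041-167936238, plus strand: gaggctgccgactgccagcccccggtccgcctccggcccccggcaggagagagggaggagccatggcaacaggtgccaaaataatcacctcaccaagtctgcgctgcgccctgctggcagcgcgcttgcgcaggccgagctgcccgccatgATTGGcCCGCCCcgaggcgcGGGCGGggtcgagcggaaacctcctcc
CUL4B, chrX:120561454-120561703, minus strand: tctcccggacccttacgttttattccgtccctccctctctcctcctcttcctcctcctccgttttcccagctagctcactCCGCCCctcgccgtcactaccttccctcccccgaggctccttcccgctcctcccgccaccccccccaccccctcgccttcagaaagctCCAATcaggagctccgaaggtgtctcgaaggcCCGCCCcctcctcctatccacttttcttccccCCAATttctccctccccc

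The RBX1 stretch held 5 GC boxes, and 250 of its 250 bases lay under the PRMT6 peak and 125 under the PARP1 peak. In the DCAF15 stretch, with 1 ETS match, 1 GC box and 2 CCAAT boxes, 250 bases lay under the PRMT6 peak and 225 under the PARP1 peak. The DCAF16 stretch is the whole interval of 221 bases between its start and that of NCAPG on the other strand, with 1 NRF1 core, and all 221 lay under both peaks. In the DDB2 stretch, with 3 CCAAT boxes, 156 bases lay under the PARP1 peak and 0 under a PRMT6 peak. In the DCAF6 stretch 174 of 198 bases lay under a PARP1 peak. The CUL4B stretch lies before the listed start 14079 bp into the record, not at the record's 5′ end. It held GC boxes and CCAAT boxes with 4 matches in all, and no base of it lay under a peak. Both kinds of box also occurred in the DCAF15 and DCAF6 stretches. A match is a description of the letters and not evidence that a factor binds.

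The subunits that define CRL4B differed among themselves. RBX1, the RING subunit, had a wide peak in each list over its 5′ end on chromosome 22, at 40951090 to 40951943 for PRMT6 (score 5.73, rank 4051) and at 40951253 to 40951855 for PARP1 (score 5.04, rank 9084). The PARP1 peak lay within the PRMT6 peak, and both had middling or low scores for their list, at the 55.3 and the 21.9 percentile. CUL4B, the scaffold, had no peak at its promoter or inside its record in either list. From the 5′ end of its record on chromosome X (120575532, minus strand), the nearest PRMT6 peak lay 159024 bp upstream and the nearest PARP1 peak 54457 bp upstream. RefSeq lists further starts of CUL4B 14079, 14570 and 15634 bp into the record, and none had a peak of either list within 3 kb. DDB1, the adaptor, also had no peak, and the nearest lay 16234 bp (PRMT6) and 28862 bp (PARP1) upstream, beyond the 5′ end of TKFC, 123 bp away on the other strand.

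The paralogous scaffold CUL4A had no promoter peak, and its nearest peaks formed an overlapping pair 20461 bp (PRMT6, rank 2287) and 20571 bp (PARP1, rank 2772) upstream. Inside CUL4A there was 1 PRMT6 peak, 47227 bp downstream of the 5′ end, of the smallest width in its list (288 bp) and at rank 5718. A gene without a listed peak is one where none was called at the authors' threshold, which is not given in the sources used here.

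Among the other cullins, CUL2, CUL3 and CUL7 had promoter peaks of both lists that overlapped, and CUL1, CUL5 and CUL9 had none. Over the 8 cullins the count was 3 in each list (37.5%, 8.52% to 75.5%), beside 18.4% (PRMT6) and 22.6% (PARP1) of all coding genes. CUL2, the scaffold that carries the VHL tumor suppressor, had nearly coincident peaks across its 5′ end, from 252 bp upstream to 390 bp downstream for PRMT6 (score 8.78, rank 1469) and from 235 bp upstream to 408 bp downstream for PARP1 (score 8.13, rank 3486). These peaks also cover the 5′ end of CREM, 160 bp into CUL2 on the other strand. The starts that RefSeq lists for CUL2 lie 36392, 36665 and 52723 bp into the record, and none is at this 5′ end. The peaks are therefore placed at CUL2 by the end of its record alone. At CUL3, the scaffold of ligases with BTB-domain receptors, both peaks ended short of the 5′ end, 76 bp upstream for PRMT6 (score 8.64, rank 1575) and 111 bp upstream for PARP1 (score 7.61, rank 4036). CUL7, the scaffold of the 3M complex, had peaks across its 5′ end at score 10.11 (rank 1088) for PRMT6 and score 8.54 (rank 3074) for PARP1. All 3 genes ranked in the higher-scoring 50% of both lists.

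Of the 5 genes for RING subunits and for DDB1 and its partners, RBX1 and DDA1 had both peaks. RNF7 had a PARP1 peak, and DDB1 and DET1 had none. The shares were 40.0% for PRMT6 (5.27% to 85.3%) and 60.0% for PARP1 (14.7% to 94.7%), beside 18.4% and 22.6% of all coding genes. DDA1, a small subunit bound to DDB1, had its PRMT6 peak from 346 to 10 bp upstream (score 9.08, rank 1395) and its PARP1 peak from 358 to 33 bp upstream (score 15.03, rank 689). The PARP1 peak was among the strongest of the listed genes, at the 94.1 percentile. RNF7, the RING partner of CUL5, had a PARP1 peak across its 5′ end (score 6.63, rank 5487), and its nearest PRMT6 peak lay 137343 bp away. DET1, which links DDB1 to COP1, had its nearest peaks 228011 bp (PRMT6) and 92116 bp (PARP1) upstream.

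**Figure D2:**
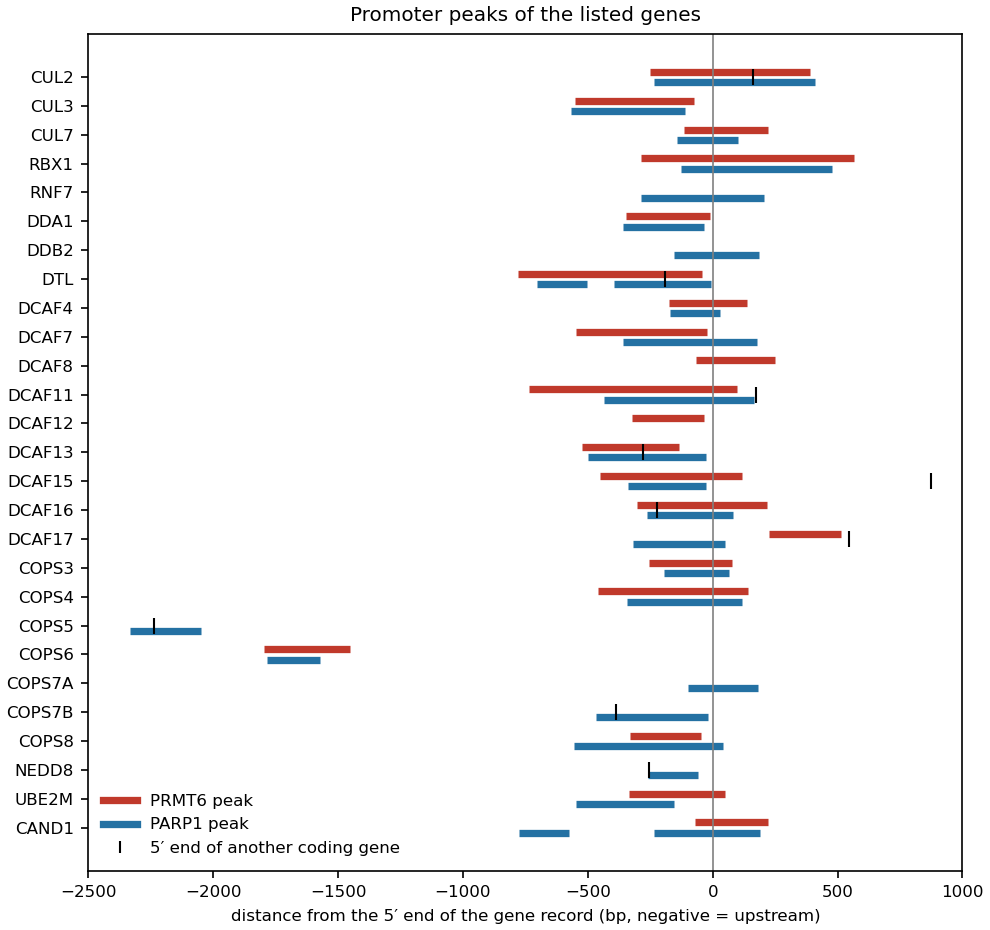
Promoter peaks of the 27 listed genes that had one, drawn from start to end against the distance from the 5′ end of the gene record (horizontal axis, bp, negative values upstream). Red bars are PRMT6 peaks, blue bars are PARP1 peaks and black ticks are 5′ ends of other coding genes. Most peaks lie from 600 bp upstream to 600 bp downstream, and those of COPS5 and COPS6 lie more than 1 kb upstream.

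The substrate receptors, the largest group, had the largest number of shared genes, 8 of 19 (DTL, DCAF4, DCAF7, DCAF11, DCAF13, DCAF15, DCAF16 and DCAF17). That is 42.1% (20.3% to 66.5%), beside 13.5% of all coding genes. A PRMT6 peak was present at 10 (52.6%, beside 18.4%) and a PARP1 peak at 9 (47.4%, beside 22.6%). DCAF15, the receptor that the drug indisulam redirects to splicing factors, had the strongest pair, at 13952059 to 13952627 on chromosome 19 for PRMT6 (score 13.61, rank 479) and at 13952169 to 13952483 for PARP1 (score 15.82, rank 575). The PARP1 peak lay within the PRMT6 peak, over most of the stretch printed above. Neither peak reached the 5′ end of PODNL1, 874 bp into DCAF15 on the other strand. DCAF16 had peaks of both lists across its 5′ end, at score 8.42 (rank 1656) and score 11.09 (rank 1578). They also cover the 5′ end of NCAPG, a condensin gene, 222 bp upstream. DCAF7, a WD40 protein known as a partner of the kinase DYRK1A, had a PRMT6 peak that ended 21 bp upstream (score 10.68, rank 913) and a PARP1 peak across the 5′ end (score 9.28, rank 2509).

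DTL, also called CDT2, is the receptor that targets replication factors bound to PCNA. Its PRMT6 peak ran from 781 to 42 bp upstream (score 9.44, rank 1268), and 2 PARP1 peaks overlapped it, the better one at score 6.38 (rank 5999). The DTL interval holds the 5′ end of INTS7, an Integrator subunit, 191 bp upstream on the other strand, which the PRMT6 peak and the better PARP1 peak cover. At DCAF13, a nucleolar protein needed for ribosome production, the PARP1 peak (score 18.03, rank 364) stood far higher in its list than the PRMT6 peak (score 8.15, rank 1786). Both peaks lay over the 5′ end of SLC25A32, 279 bp upstream, and neither reached the 5′ end of DCAF13. The opposite order held at DCAF4, with score 9.0 (rank 1420) for PRMT6 and score 4.84 (rank 9402) for PARP1, the latter a peak of the smallest width in its list (200 bp).

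DCAF11 had wide peaks that reached across its 5′ end, at score 6.9 (rank 2628) and score 6.73 (rank 5306). The 5′ end of NRL lies 172 bp into DCAF11 on the other strand. The PARP1 peak ended just short of it, 167 bp downstream, and the PRMT6 peak 98 bp downstream. DCAF17, the gene mutated in Woodhouse-Sakati syndrome, was the only shared gene whose peaks did not overlap. Its PARP1 peak (score 7.65, rank 3985) spanned the 5′ end and its PRMT6 peak (score 5.37, rank 4600) lay 225 to 513 bp downstream, close to the 5′ end of METTL8. DCAF8 had a PRMT6 peak across its 5′ end (score 5.75, rank 3935), and DCAF12, which recognises acidic C-terminal tails, had one of the smallest width 35 bp upstream (score 5.62, rank 4084). For both the nearest PARP1 peak lay more than 3 kb away, at 56176 and 52062 bp. DDB2, which recognises ultraviolet lesions in DNA, had a low PARP1 peak across its 5′ end (score 4.88, rank 9387) and no PRMT6 promoter peak.

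The other receptors, AMBRA1, DCAF1, DCAF5, DCAF6, COP1, CRBN, FBXW5 and DCAF10, had no promoter peak at the 5′ end of their record. COP1, a RING ligase that works with DET1, lay farthest from peaks among these, with the nearest at 190821 bp (PRMT6) and 557511 bp (PARP1). CRBN, the receptor bound by thalidomide and its relatives, had its nearest peaks at 129072 and 42865 bp.

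**Figure D3:**
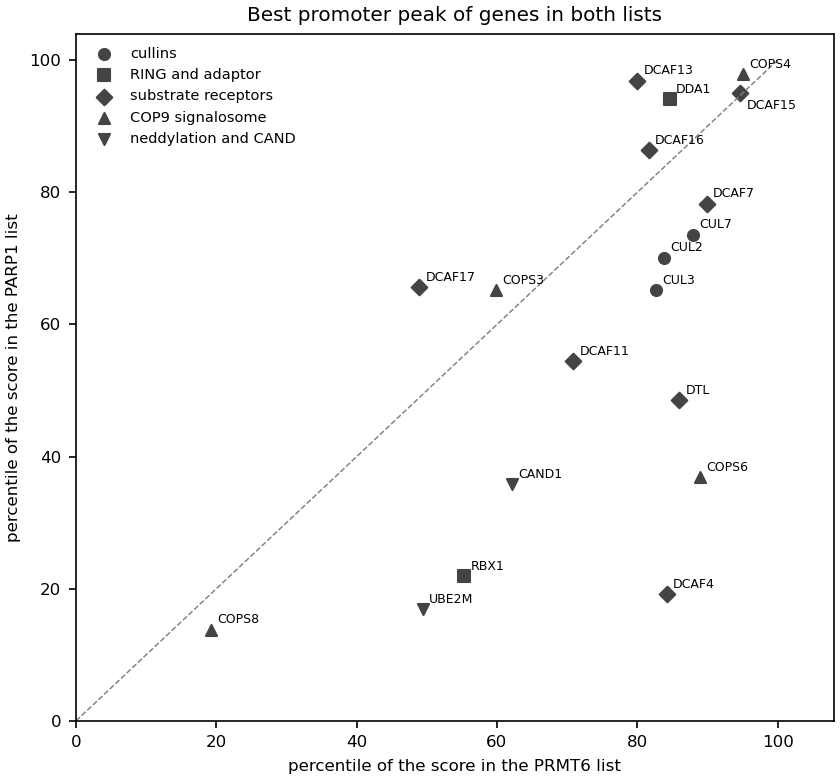
Best promoter peak of each of the 19 genes with peaks of both lists, placed by the percentile of its score in the PRMT6 list (horizontal axis, %) and in the PARP1 list (vertical axis, %), with marker shapes for the roles. The dashed line marks equal percentiles. COPS4 and DCAF15 lie at the upper right and COPS8 at the lower left. DDA1, DCAF13, DCAF15, DCAF16, DCAF17, COPS3 and COPS4 lie above the line. All other genes, DCAF4, COPS6 and RBX1 among them, lie below it.

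In the COP9 signalosome, which cleaves NEDD8 from cullins, PARP1 peaks were present at 7 of 10 genes (70.0%, 34.8% to 93.3%), beside 22.6% of all coding genes. PRMT6 peaks were present at 4 (40.0%, 12.2% to 73.8%), beside 18.4%. These 4 genes also had PARP1, which over all coding genes held for 73.1% of those with PRMT6. COPS4 had the strongest promoter peaks of all listed genes in both lists. On chromosome 4 the PRMT6 peak ran from 83034723 to 83035326 (score 13.95, rank 449) and the PARP1 peak from 83034838 to 83035302 (score 20.28, rank 247), and both covered the 5′ end. COPS3 had peaks across its 5′ end of intermediate rank, at score 5.96 (rank 3592) and score 7.61 (rank 4036). COPS8 had the weakest shared pair, at score 4.48 (rank 6841, smallest width) for PRMT6 and score 4.53 (rank 9957) for PARP1.

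COPS6, the inactive partner of the protease subunit, had a pair of overlapping peaks 1453 bp (PRMT6, score 10.45, rank 992) and 1573 bp (PARP1, score 5.66, rank 7325) upstream, with no other coding 5′ end in the window. COPS5, the metalloprotease itself, had only a PARP1 peak (score 5.93, rank 6769), whose near end lay 2048 bp upstream and covered the 5′ end of CSPP1. These were the peaks nearest to the outer limit of the window. COPS7A had a PARP1 peak across its 5′ end (score 8.3, rank 3278). COPS7B had one that ended 18 bp upstream (score 7.9, rank 3721) and covered the 5′ end of PDE6D. GPS1, COPS2 and COPS9 had no peak, and their nearest lay at least 13533 bp away.

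Of the 7 neddylation genes, UBE2M and CAND1 had both peaks and NEDD8 had a PARP1 peak. The shares were 28.6% for PRMT6 (3.67% to 71.0%) and 42.9% for PARP1 (9.9% to 81.6%), beside 18.4% and 22.6% of all coding genes. UBE2M, the conjugating enzyme that works with RBX1, had a PRMT6 peak across its 5′ end (score 5.44, rank 4596) and an overlapping PARP1 peak that ended 156 bp upstream (score 4.68, rank 9679). CAND1, the receptor exchange factor, had a PRMT6 peak across its 5′ end (score 6.2, rank 3373) and 2 PARP1 peaks, the better at score 5.64 (rank 7383) and 577 bp upstream, the other at rank 7686 across the 5′ end. Only the latter overlapped the PRMT6 peak. The PARP1 peak at NEDD8 was of the smallest width and near the end of its list (score 4.1, rank 10999), and it covered the 5′ end of GMPR2. UBA3 and NAE1, which form the NEDD8 activating enzyme, had no peak at the promoter or inside. At UBA3 the nearest peaks lay 5975 bp (PRMT6) and 6097 bp (PARP1) upstream, not far beyond the window.

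The scores of promoter peaks at the listed genes were spread over much of each list. The best PRMT6 promoter peak had a median percentile of 81.6 over the 21 genes, beside 71.8 over all 3552 coding genes with such a peak, and 18 of 21 were in the higher-scoring 50% of the list (85.7%, beside 73.6%). For PARP1 the median was 65.2 over 25 genes, beside 62.3 over 4359, and 15 of 25 were in the higher-scoring 50% (60.0%, beside 62.2%). Few listed genes reached the 90th percentile of a list, 2 for PRMT6 (9.52%, beside 19.9%) and 4 for PARP1 (16.0%, beside 15.0%).

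The peaks sat close to the 5′ end and, as over all coding genes, more often upstream of it than downstream. Of the best PRMT6 peaks, 12 covered the 5′ end (57.1%, beside 55.3% of all coding genes with a peak), 8 lay upstream (38.1%, beside 26.9%) and 1 downstream (4.76%, beside 17.8%). Within 600 bp of the 5′ end lay 20 of the 21 (95.2%, beside 84.5%). For PARP1, 14 covered the 5′ end (56.0%, beside 44.9%), 11 lay upstream (44%, beside 34.6%) and 0 downstream (beside 20.5%), and 23 of 25 came within 600 bp (92.0%, beside 83.1%). Peaks of the smallest width, which in the PRMT6 list make up 53.1% of all peaks, were 3 of the 21 (14.3%, beside 27.6%).

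Several of these promoters are shared with a neighbor, so a peak cannot be assigned to 1 gene. The 3 kb window of 15 listed genes held the 5′ end of another coding gene. Of these 15, 7 had a PRMT6 peak (46.7%), 10 a PARP1 peak (66.7%) and 7 both (46.7%), beside 34.1%, 41.2% and 27.1% of all 3368 coding genes of that kind. Of the 34 without such a neighbor, 14 had a PRMT6 peak (41.2%), 15 a PARP1 peak (44.1%) and 12 both (35.3%), beside 15.1%, 18.6% and 10.6% of 15940. A close neighbor did not always come with a peak. CUL4A with PCID2 (476 bp), DDB1 with TKFC (123 bp), COPS2 with GALK2 (175 bp), FBXW5 with C8G (505 bp) and GPS1 with RFNG (879 bp) had none.

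Inside the genes, beyond the promoter window, a PRMT6 peak was found at 13 of 49 genes (26.5%, 14.9% to 41.1%), beside 13.5% of all coding genes, and a PARP1 peak at 10 (20.4%, 10.2% to 34.3%), beside 14.8%. When the peaks of the smallest width were left out, the PRMT6 count was 2 (4.08%), below the 5.37% of all coding genes, and the PARP1 count was 7 (14.3%, beside 10.4%). Exons and introns were not separated. The 15 genes with such a peak were long, with a median of 75.8 kb against 28.1 kb for the 34 without, and the listed genes as a whole had a median of 34.6 kb against 25.4 kb for all coding genes. The part of length in these counts was not tested. Of the 15 PRMT6 peaks inside, 12 had the smallest width (80.0%, beside 64.0% of all PRMT6 peaks inside coding genes), and their median percentile was 43.3, the same as over all such peaks. The 13 PARP1 peaks inside had a median percentile of 30.4, beside 44.7.

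No signalosome gene had a peak inside (0 of 10 in each list, interval 0.0% to 30.8%), beside 13.5% (PRMT6) and 14.8% (PARP1) of all coding genes. DCAF5 held the strongest inner pair, 97603 bp downstream of its 5′ end for PRMT6 (chromosome 14, 69055134 to 69055594, score 11.47, rank 774) and overlapping it for PARP1 (69055108 to 69055539, score 12.14, rank 1216), near the far end of the gene. DCAF1, the receptor that the HIV protein Vpr captures, held 2 PRMT6 peaks (ranks 2871 and 3143) and 1 PARP1 peak (score 8.43, rank 3225) between 5149 and 6356 bp downstream, the closest inner peaks to a 5′ end without a promoter peak. DDB2 held an overlapping pair 19660 (PRMT6) and 19860 bp (PARP1) downstream, at ranks 6633 and 4289, so PRMT6 was listed in DDB2 away from its promoter. That PRMT6 peak had the smallest width and a low score, at the 26.4 percentile. The pair inside DCAF4, both of the smallest width, lay over the pseudogene LOC100420966.

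The remaining inner peaks were isolated. CUL1, the scaffold of SCF ligases, held a PARP1 peak 74824 bp downstream (score 9.58, rank 2297) and a PRMT6 peak elsewhere (rank 5718). CUL5 held a PARP1 peak 7922 bp downstream (rank 9223) and a PRMT6 peak at rank 4835. AMBRA1, the receptor of D-type cyclins, held a PRMT6 peak 134264 bp downstream (rank 4835), UBE2F, the conjugating enzyme that works with RNF7, one at 69826 bp (rank 5718), and CAND2 one at 13615 bp (rank 8402). All of the PRMT6 peaks in these 5 genes had the smallest width. Inner peaks were also listed in CUL2, DDA1, DCAF11 and DCAF17, which had promoter peaks as well.

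Genes with several start sites showed that the 5′ end of the record does not capture every promoter. RefSeq lists a start for 44 of the 49 genes, and 6 genes have a start beyond the promoter window. At DCAF6, a coactivator of nuclear receptors, the PARP1 peak 72489 bp into the record (167936065 to 167936563 on chromosome 1, score 6.35, rank 6014) covered the listed start 72663 bp in, whose upstream stretch is printed above. The 5′ end of MPC2, a mitochondrial pyruvate carrier gene, lies 509 bp from this peak, so the peak cannot be assigned to DCAF6 alone. Counted from all listed starts, DCAF6 was the only change, and the PARP1 count became 26. CUL2 had a PARP1 peak (rank 8734) over a start 36392 bp in and a PRMT6 peak (rank 4181) 284 bp from a start 52723 bp in. Both were of the smallest width, and neither overlapped a peak of the other list. They were the only CUL2 peaks within 3 kb of its listed starts, since the record's 5′ end is not a listed start.

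**Figure D4:**
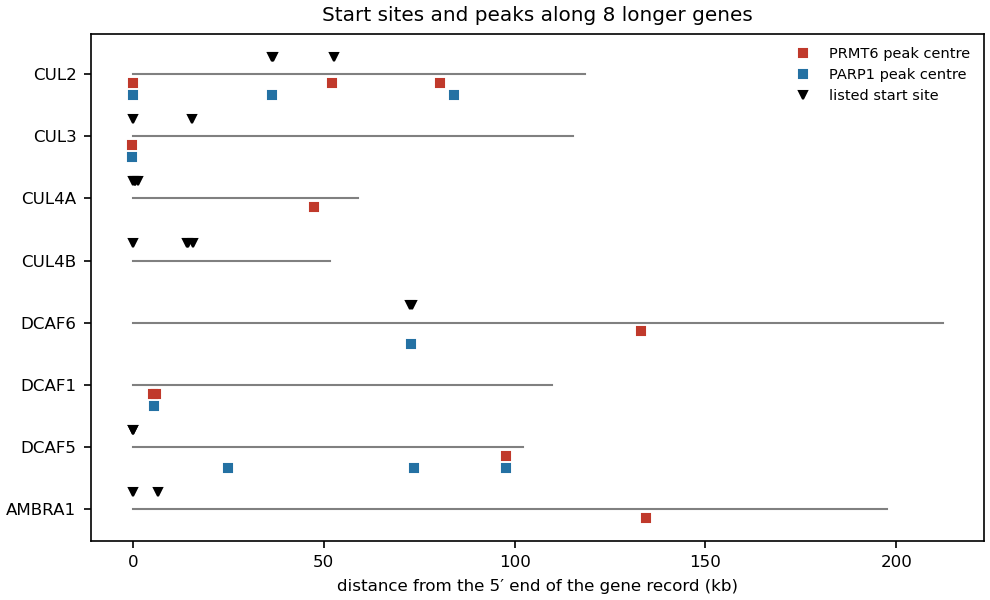
Peak centers along 8 longer genes, with the distance from the 5′ end of the gene record in kb on the horizontal axis. Grey lines are gene records, red squares PRMT6 peaks and blue squares PARP1 peaks in the promoter window or inside the gene, and black triangles start sites that RefSeq lists. CUL4B has 4 listed starts and no peak, DCAF6 a PARP1 peak at its inner starts, and DCAF5 coinciding peaks near the far end. DCAF1 has no listed start in the table.

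Promoters of the listed genes were rich in CpG, the dinucleotide that marks CpG islands. Over the 42 genes with a listed start within 300 bp of the record's 5′ end, the observed over expected CpG ratio had a median of 0.87, beside 0.77 over 13631 coding genes. Over all coding genes the median was 0.85 for genes with both peaks and 0.71 for genes with none. Within the list these medians lay closer together, at 0.90 for the 15 genes with both and 0.87 for the 20 with none. COPS4, with the strongest peaks, had the lowest ratio of the listed genes, 0.37, and UBE2F, without a promoter peak, the highest, 1.21. Among promoters with a ratio of at least 0.6, 16 of 36 listed genes had PRMT6 (44.4%), 18 PARP1 and 14 both (38.9%), beside 27.0%, 32.6% and 20.0% of 9193 coding genes. The part of CpG content in the counts was not tested.

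The GC box and the CCAAT box were common in promoters generally, and the other motifs were rarer. A GC box was found within 250 bases before to 50 after the start in 31 of the 42 listed promoters (73.8%), beside 59.4% of all 13631. It was present in 13 of the 15 with both peaks (86.7%, beside 77.0% of all coding genes with both) and in 13 of the 20 with none (65.0%, beside 53.0%). An ETS match was found in 10 (23.8%, beside 14.9%), in 2 of the 15 with both peaks (13.3%, beside 19.9%) and in 6 of the 20 with none (30.0%, beside 12%). The order within the list was the opposite of that over all coding genes, but it rests on these few promoters and was not tested. A CCAAT box was found in 16 (38.1%, beside 37.2%). The NRF1 core was found in 2 genes, DTL and DCAF16 (4.76%, beside 4.5%), the CRE in DTL and RNF7 (4.76%, beside 2.75%), and the YY1 motif in COPS4 (2.38%, beside 4.14%).

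A further list of the pathway held 71 genes that are not among the 49, of which 70 had a record. Among them were F-box and BTB receptors, elongins, NEDD8 ligase helpers, further DCAF proteins and substrates of CRL4. This list, too, was made with earlier results of these data known. A PRMT6 promoter peak was found at 23 of 70 (32.9%, beside 18.4% of all coding genes) and a PARP1 peak at 33 (47.1%, beside 22.6%). Both were found at 19 (27.1%, beside 13.5%) and neither at 33 (47.1%, beside 72.5%). With the best mean rank among those with both, KMT5A, a histone methyltransferase degraded through DTL, had PRMT6 at rank 281 and PARP1 at rank 730. ELOC, the elongin C of CUL2 and CUL5 ligases, had ranks 1284 and 360, and FBXL5, the iron-sensing receptor of an SCF ligase, had ranks 907 and 1337. In each of the 3 genes the peaks of the lists overlapped.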

How the data were processed

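The deposited files hold 1 peak list per antibody, with chromosome, start, end, name and a score that is the −log10 of the p or q value that the authors' peak caller gave. Which of these it is, the thresholds, any control library and the read depth are not given in the sources used here. The methods describe CUT&Tag, in which Tn5 cuts next to the antibody, while the labels also describe adaptor ligation, so the library chemistry is uncertain. The submitters' processing notes name CASAVA 1.4, Bowtie 0.12.8, MACS, MACS2 and hg19. However, 55 PRMT6 and 61 PARP1 peaks ended beyond the GRCh37 chromosome ends, and 30.0% and 29.2% of peaks lay within 1 kb of a 5′ end in GRCh38 records, against 4.04% and 3.94% in GRCh37. RefSeq records of GRCh38.p14 were therefore used, with the strand of the GENCODE gene of the same name. Of 20052 coding records, 744 had no strand and were left out.

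Groups follow the antibody in the labels. Any base of a peak within 3 kb of the 5′ end, or otherwise inside the record, was counted, and lists overlapped by at least 1 bp. Python 3.11.15 with numpy 2.4.6, pandas 2.3.3, scipy 1.17.1 (exact Clopper-Pearson intervals) and matplotlib 3.10.9 was used. The code was tested on simulated data and gave the same promoter counts as bedtools 2.31.1. Motifs and CpG content were taken at the listed start nearest to the 5′ end. A percentile is the rank of a score counted from the lowest, with ties given their mean rank, as a share of the peaks in its list. With 1 library per antibody no test was made. Named are all genes with promoter peaks, the CRL4 core genes, the genes with inner peaks or none, and the 3 best shared genes of the further list. The genes, the lists and most choices were made with earlier results of these data known. Alternatives varied the window, the score, the peak width, the list length, the overlap and the neighbors. Those with listed starts, and without the smallest width for inner peaks and overlaps, were added after seeing the data.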

Additional observations from a re-analysis of the deposited data

How the results depend on the processing

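Of 41 recomputed counts, 34 stayed within 1.5 times the reported count and 7 moved further. With the higher-scoring 50% of each list, the listed genes with a PARP1 promoter peak fell to 15, those with both to 11, those with a PRMT6 peak inside to 4 and those with a PARP1 peak inside to 5, since fewer peaks entered. Without peaks of the smallest width, an alternative added after seeing the data, 2 genes kept a PRMT6 peak inside (4.08%), fewer than the 5.37% of all coding genes, so the direction of that difference turned. Without genes whose window holds another coding 5′ end, 34 genes were left, so these counts fell with the number of genes. PARP1 was at 15 (44.1%, beside 18.6%) and both at 12 (35.3%, beside 10.6%), where the full list had 51.0% and 38.8%. The listed genes' share with a promoter peak stayed above that of all coding genes in 27 of 27 alternatives. Overlapping promoter peaks were found at 15 genes (30.6%, beside 10.9%) with a reciprocal overlap of 50% and at 18 (36.7%, beside 13.2%) with centers within 500 bp. No paired analysis was possible because a single library per antibody leaves nothing to pair. Without depth, control or replicates, the absence of a peak was not distinguished from a signal under the threshold.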
